A study of Mus musculus with 6 samples.

Results

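This report describes 9 G protein-coupled receptor (GPCR) genes of CD8+ T cells, most of which sense lipids or were long known as orphan receptors, and Cldnd1, which is not a receptor but lies beside Gpr15 on the chromosome. The genes are Gpr55, Gpr15, Cldnd1, Gpr183, Gpr65, Gpr18, Gpr171, Gpr174, Ptger4 and Ptger2, 10 of the 19938 genes to which the array gave a row of their own. They were chosen by name, and the row with the highest mean over the 6 arrays was to be used for each gene. Each gene had only 1 row, so this rule decided nothing. All 10 passed the filter on dim genes and were among the 10021 genes tested.

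RNA came from splenic CD8+ T cells of WT (Runx3 +/+) and Runx3-/- mice, with 3 biological repeats per genotype and 1 Affymetrix mouse gene ST 1.0 array per repeat. The question was which genes depend on Runx3, a Runt-domain transcription factor, in IL-2-activated cells. Per the labels all mice were ICR males aged 6 weeks. Cells of both genotypes were selected on anti-CD8 beads, activated on plate-bound anti-CD3 with soluble anti-CD28 for 2 days, and kept in IL-2 at 100 units per ml for 4 days. Only the Runx3-/- cells were also sorted by flow cytometry, once to take out CD11c+ dendritic cells and again after culture to take out CD4+CD8- cells, so that sorting and genotype cannot be told apart. The mice lacked Runx3 in every cell, and the CD8+ cells had developed in its absence.

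Some array facts bear on the results. Runx3 mRNA ran from 8.26 to 9.16 (log2) in WT and from 8.91 to 9.27 in Runx3-/- (difference 0.37, SE 0.24, limma adjusted p = 0.521). Probes lie along the transcript, and no source used here names the disrupted stretch, so this level is no check of genotype. The Runx3-/- arrays are called KO-labelled below. WT1, labelled male, had Xist at 10.6, against 3.31 to 3.40 elsewhere, and the Y-linked genes Eif2s3y and Uty at 3.93 and 3.91, against at least 9.24 and 7.10 elsewhere. WT2 and KO2 were the most distant arrays on principal component 1, with 49.6% of the variance. Cd8a (10.7 to 11.5) and Cd8b1 (11.3 to 11.9) were bright on all 6 arrays.

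GPCRs are membrane receptors that pass a signal to heterotrimeric G proteins, which raise or lower cyclic AMP or release calcium. In T cells they steer migration and set the strength of the response. Gpr183 guides lymphocytes along oxysterol gradients, Gpr15 directs T cells to the large intestine, and the prostaglandin E2 receptors encoded by Ptger2 and Ptger4 raise cyclic AMP and dampen activation. Gpr65 senses extracellular protons, Gpr55 responds to lysophosphatidylinositol, and Gpr174 responds to lysophosphatidylserine.

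The DNA before the starts of 4 of these genes is shown because their RNA differed most between the genotypes, and because Runx proteins bind a short DNA motif. Each sequence is the 250 bases before the RefSeq start on GRCm38.p6, 5′ to 3′ along the gene's strand. Capitals mark matches to the core motif TGTGGT or to its variants, namely TGTGGC, the form TGCGGT and the form TGCGGC, on either strand. Gpr55 is on the minus strand at chr1:85961056-85961305, Gpr15 on the minus strand at chr16:58718873-58719122, Cldnd1 on the plus strand at chr16:58727660-58727909, and Gpr174 on the plus strand at chrX:107284096-107284345.
Gpr55: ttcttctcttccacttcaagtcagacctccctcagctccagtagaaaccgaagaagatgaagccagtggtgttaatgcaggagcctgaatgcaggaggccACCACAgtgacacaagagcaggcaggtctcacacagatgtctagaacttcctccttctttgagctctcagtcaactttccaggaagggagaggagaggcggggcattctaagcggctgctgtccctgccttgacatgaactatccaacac
Gpr15: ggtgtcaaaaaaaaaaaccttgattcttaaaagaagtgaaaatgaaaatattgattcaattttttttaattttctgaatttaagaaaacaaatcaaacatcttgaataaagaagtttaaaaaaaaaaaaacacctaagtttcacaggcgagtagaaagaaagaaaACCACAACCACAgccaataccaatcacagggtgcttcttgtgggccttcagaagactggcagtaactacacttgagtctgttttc
Cldnd1: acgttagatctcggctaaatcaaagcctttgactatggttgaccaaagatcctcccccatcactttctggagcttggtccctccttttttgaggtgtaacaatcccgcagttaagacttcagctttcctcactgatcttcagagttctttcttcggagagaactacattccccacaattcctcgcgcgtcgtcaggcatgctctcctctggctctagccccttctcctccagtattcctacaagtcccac
Gpr174: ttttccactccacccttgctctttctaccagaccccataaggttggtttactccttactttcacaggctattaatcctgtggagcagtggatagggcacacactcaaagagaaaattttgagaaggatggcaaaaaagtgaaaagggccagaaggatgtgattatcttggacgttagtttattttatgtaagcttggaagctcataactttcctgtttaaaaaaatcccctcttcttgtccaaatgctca

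Gpr15 held 2 adjacent matches, from -85 to -80 and from -79 to -74 relative to its start, and Gpr55 held 1, from -150 to -145. All of them read TGTGGT on the strand opposite to the gene. Cldnd1 and Gpr174 held none in this window. RefSeq windows of 300 bases, which run from 250 bases before to 50 after a start, were found for 9 of the 10 genes, and 4 of the 9 held a match, the others being Gpr18 (-31 to -26) and Ptger2 (-18 to -13). Over all 32851 such windows 45.2% held at least 1 match and 12.8% at least 2. AP-1 motifs (TGACTCA and also TGAGTCA, 5.2% of all windows) and an ETS core (CGGAAG, 16.9% of all windows) were searched on both strands too and had 0 matches in the 9 windows. The starts used for Gpr55 and Gpr174 lie 30528 and 28468 bases inside the span that RefSeq gives those genes, and other starts were not searched. A match is a run of letters here, and binding was not analysed.

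The KO-labelled values for Gpr55, Gpr15 and Cldnd1 all lay below WT, and those for Gpr174 and Gpr171 all lay above WT. At a limma p adjusted over all tested genes of 0.05, 3 of the 10 genes passed, all of them lower (0.629% of all tested genes passed). The study's threshold, taken over here, combines a 1.5-fold change with a limma p of 0.05 before adjustment. At this threshold 6 of the 10 passed (8.3% of all tested genes), 4 of them lower (4.33%) and 2 higher (3.97%). Over all tested genes 434 were lower and 398 higher at this threshold, which became 532 and 324 with median normalization and 523 and 362 with quantile normalization. The 2 groups of 3 arrays did not overlap for 6 of the 10 genes, 3 lower and 3 higher, as for 22.4% of all tested genes. The median difference over the 10 genes was -0.26 (log2, KO-labelled minus WT), beside -0.01 over all tested genes. The genes were chosen with earlier results of these arrays known, so these counts describe them and support nothing further.

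**Figure D1:**
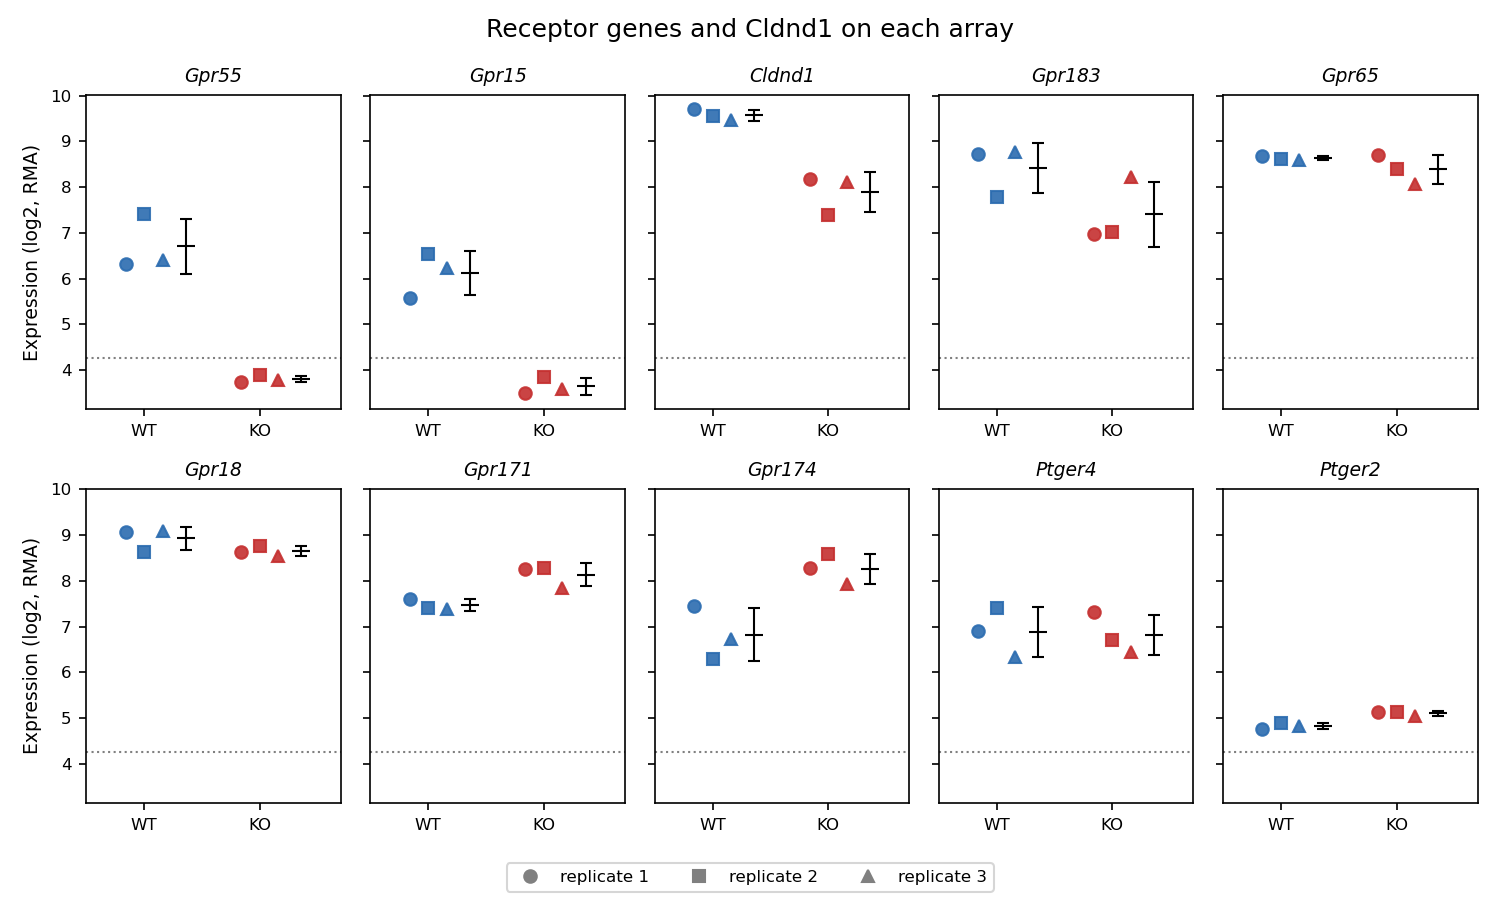
Log2 expression (y axis) of each gene on the 3 WT (blue) and 3 KO-labelled (red) arrays, with bars for mean ± SD (n = 3) and a dotted line at the table's overall median, 4.26. All KO-labelled points of Gpr55 and Gpr15 lie under that line, and those of Gpr171, Gpr174 and Ptger2 lie above every WT point.

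Gpr55, the lysophosphatidylinositol receptor, had the largest difference of the 10 genes. Its log2 expression was 6.32, 7.40 and 6.41 in WT1, WT2 and WT3 and 3.75, 3.88 and 3.79 in KO1, KO2 and KO3. The WT arrays spread over more than 1 log2 unit with WT2 the highest, while the KO-labelled arrays were close together and all below the table median of 4.26, which stands in here for a background level. Gpr55 fell from 6.71 ± 0.60 (SD, n = 3) to 3.81 ± 0.07 (n = 3), a log2 difference of -2.90 (SE 0.29, 95% interval -3.59 to -2.22, limma adjusted p = 0.0143). With the table median in place of the dim KO-labelled values, it was 5.47-fold lower, a point value without an interval. Without KO3 the difference was -2.89 and no longer passed (adjusted p = 0.0839). In RNA of a whole culture, fewer cells of a type and less RNA per cell cannot be told apart.

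The chromosome neighbours of Gpr55 showed no such difference. Its nearest named protein-coding genes on chromosome 1 are Cab39, Itm2c, Spata3 and Psmd1. Cab39, a scaffold of the kinase LKB1, stood at 0.10 (SE 0.14), Itm2c, a BRICHOS-domain membrane protein, at -0.14 (SE 0.17), and Psmd1, a proteasome subunit, at -0.19 as a log2 difference, and none of them passed either threshold. Spata3 was dim on every array.

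Gpr15, the gut homing receptor, was also dim on every KO-labelled array. Its log2 expression was 5.59, 6.54 and 6.23 on the WT arrays and 3.49, 3.86 and 3.60 on the KO-labelled arrays, below the table median in all 3. The groups were far apart, and WT1 was the lowest of the WT arrays. Gpr15 fell from 6.12 ± 0.49 (SD, n = 3) to 3.65 ± 0.19 (n = 3), a difference of -2.47 (SE 0.26, 95% interval -3.08 to -1.86, limma adjusted p = 0.0160). With the table median in place of the dim KO-labelled values, Gpr15 was 3.63-fold lower. It did not pass without WT3 (-2.41, adjusted p = 0.0773) or without KO3 (-2.44, adjusted p = 0.0839). The intervals of Gpr55 and Gpr15 overlapped widely, and the order of their differences was not tested.

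Cldnd1 encodes a claudin-like membrane protein, and its start lies 9038 bases from that of Gpr15 in RefSeq, with the genes transcribed away from each other. Log2 expression of Cldnd1 was 9.70, 9.56 and 9.46 on the WT arrays and 8.18, 7.39 and 8.12 on the KO-labelled arrays, so it was lower but remained well above the table median. KO2 was the lowest. Cldnd1 fell from 9.57 ± 0.12 (SD, n = 3) to 7.90 ± 0.44 (n = 3), a difference of -1.68 (SE 0.23, 95% interval -2.22 to -1.13, limma adjusted p = 0.0380) or 3.20-fold. Its direction was stable, but the call depended on single arrays, as it did not pass without WT1 (adjusted p = 0.124), WT2 (0.0967), WT3 (0.147) or KO3 (0.109), nor with no filter on dim genes (0.0793).

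On the other side of Gpr15 lies Cpox, an enzyme of haem synthesis. Cpox expression was 6.91, 7.74 and 6.73 on the WT arrays and 6.50, 5.92 and 6.50 on the KO-labelled arrays (log2), a difference of -0.82 (SE 0.30, limma adjusted p = 0.301) that passed the study's threshold only. Its groups did not overlap, but WT2 and KO2 stood farthest out, and without both arrays the difference was -0.32. Ftdc2, the next gene on that side, was close to the table median (3.92 to 4.35), and the olfactory receptor genes Olfr172 and Olfr173 beyond Cldnd1 were dim on every array. Of the named protein-coding genes compared there, Gpr15 and Cldnd1 passed the adjusted threshold.

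**Figure D2:**
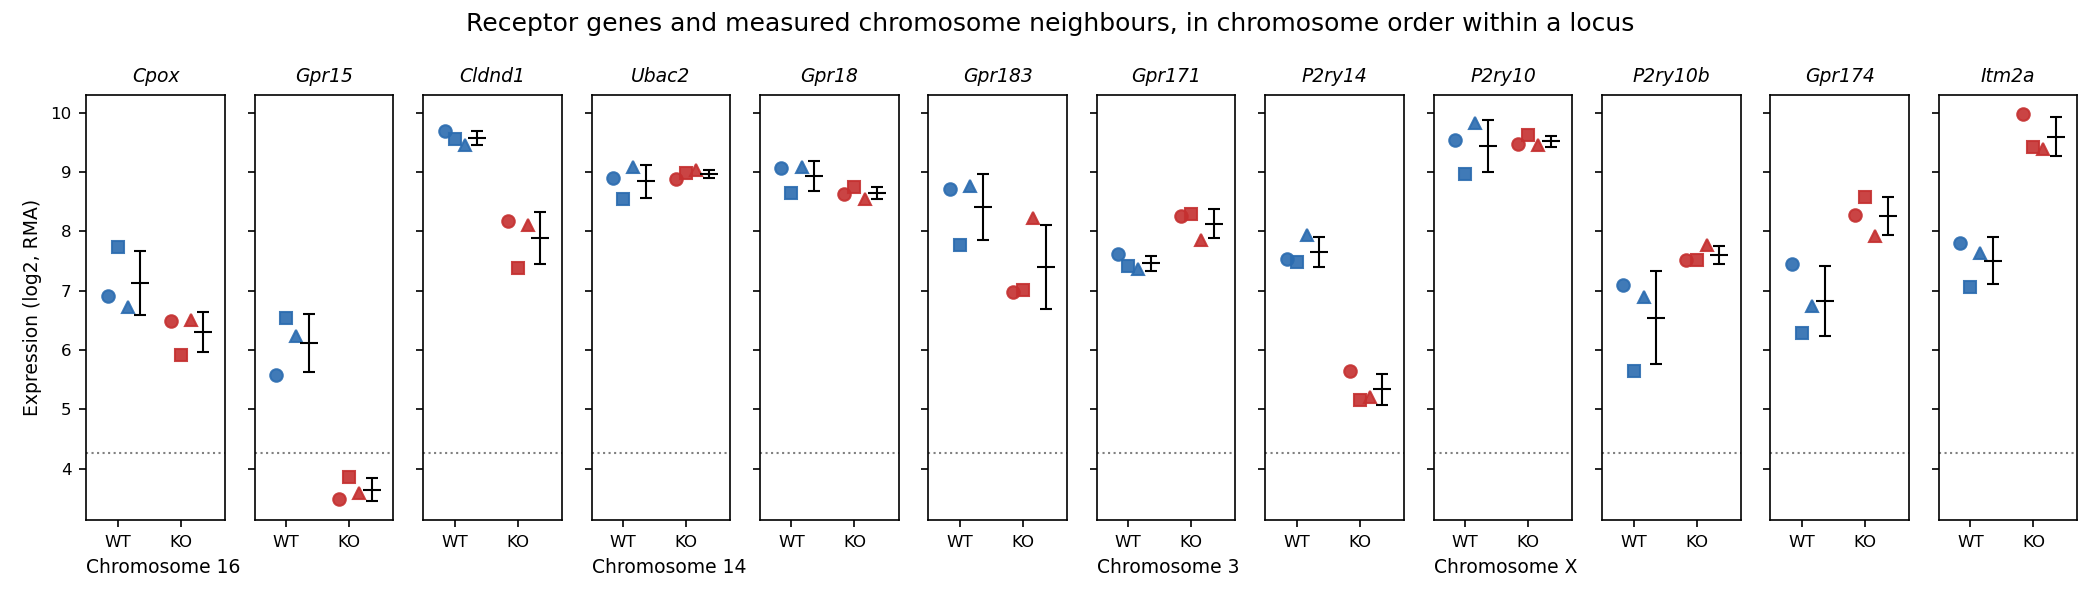
Log2 expression (y axis) of receptor genes and of neighbouring genes in their chromosome order, on the 3 WT (blue) and 3 KO-labelled (red) arrays, with circles, squares and triangles for replicates 1, 2 and 3, bars for mean ± SD (n = 3) and the dotted line at the table median. Gpr15 and Cldnd1 were both lower on chromosome 16, whereas Gpr171 was higher beside a lower P2ry14 on chromosome 3.

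Gpr183, also called EBI2, is the oxysterol receptor that positions lymphocytes in lymphoid tissue. Its log2 values were 8.72, 7.78 and 8.76 on the WT arrays and 6.97, 7.02 and 8.23 on the KO-labelled arrays. The groups overlapped, since KO3 lay above WT2. The means were 8.42 ± 0.56 (SD, n = 3) and 7.41 ± 0.71 (n = 3), a difference of -1.01 (SE 0.41, 95% interval -1.99 to -0.04, limma adjusted p = 0.337). Gpr183 passed the study's threshold only, and did not do so without WT1, WT3, KO1 or KO2 in turn, with no filter on dim genes, or in an unmoderated linear model.

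Gpr18, for which N-arachidonylglycine has been put forward as a ligand, lies beside Gpr183 on chromosome 14. It stood at 9.06, 8.64 and 9.09 on the WT arrays and at 8.64, 8.76 and 8.55 on the KO-labelled arrays (log2). The difference of -0.28 (SE 0.17, 95% interval -0.68 to 0.11, limma adjusted p = 0.481) was within the spread of the arrays, and the groups overlapped through WT2. Both receptor genes lie inside the span of Ubac2, which encodes a ubiquitin-associated membrane protein, and Ubac2 had a difference of 0.12 (adjusted p = 0.774). The intervals of the neighbouring receptors overlapped, and whether their differences were unequal was not tested.

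Gpr65, the proton sensor, raises cyclic AMP at low pH. Its log2 values were 8.68, 8.61 and 8.60 on the WT arrays and 8.70, 8.39 and 8.07 on the KO-labelled arrays. The WT arrays were nearly equal, KO1 was at their level and KO3 the lowest. The difference was -0.24 (SE 0.18, 95% interval -0.67 to 0.19, limma adjusted p = 0.566). The only other proton-sensing receptor tested, Gpr132, stood at 0.03 (SE 0.35, adjusted p = 0.980), while Gpr4 was dim on every array. Beside Gpr65 on chromosome 12, Galc, a lysosomal enzyme, was close to the table median (4.36 to 4.85).

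Gpr174, an X-linked receptor for lysophosphatidylserine, went the other way. Its log2 values were 7.45, 6.29 and 6.74 on the WT arrays and 8.28, 8.58 and 7.93 on the KO-labelled arrays. All 3 KO-labelled arrays lay above all 3 WT arrays, and WT1 was the highest of the WT arrays. The means were 6.83 ± 0.59 (SD, n = 3) and 8.26 ± 0.33 (n = 3), a difference of 1.43 (SE 0.32, 95% interval 0.68 to 2.18, limma adjusted p = 0.126), which passed the study's threshold and not the adjusted one. Without WT1, the array with Xist at 10.6, the difference was 1.75 (SE 0.26, adjusted p = 0.0862), and without both WT2 and KO2 it was 1.01 (adjusted p = 0.198).

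The genes around Gpr174 were measured as well. Itm2a, a membrane protein of activated T cells, lies next to it and rose from 7.81, 7.07 and 7.65 to 9.98, 9.43 and 9.40, a difference of 2.09 (SE 0.25, limma adjusted p = 0.0253). Its call was lost without WT1 (adjusted p = 0.0601), WT2 (0.0568), WT3 (0.0925), KO2 (0.0631) or KO3 (0.0874), and with no filter on dim genes (0.0646). On the other side lie P2ry10b at 1.05 (SE 0.37, adjusted p = 0.289), which passed the study's threshold only, and P2ry10 at 0.08 (SE 0.23, adjusted p = 0.906). P2ry10 is itself a lysophosphatidylserine receptor and was bright on all 6 arrays (8.97 to 9.82). For P2ry10b WT2 was the lowest array at 5.65, and without both WT2 and KO2 its difference was 0.65.

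Gpr171, a receptor for which the peptide BigLEN has been put forward as a ligand, was likewise above WT on every KO-labelled array. Its log2 expression was 7.61, 7.42 and 7.38 on the WT arrays and 8.27, 8.29 and 7.85 on the KO-labelled arrays. The groups did not overlap and the spread within each was small. The means were 7.47 ± 0.13 (SD, n = 3) and 8.13 ± 0.25 (n = 3), a difference of 0.67 (SE 0.17, 95% interval 0.26 to 1.07, limma adjusted p = 0.176). It passed the study's threshold, except without both WT2 and KO2, where the difference was 0.56.

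P2ry14, the receptor for UDP-sugars, is the nearest measured receptor gene beside Gpr171 on chromosome 3 and fell. Its log2 expression was 7.53, 7.49 and 7.94 on the WT arrays and 5.64, 5.16 and 5.21 on the KO-labelled arrays. The groups were more than 1 log2 unit apart, with no array between them. The difference was -2.32 (SE 0.20, limma adjusted p = 0.00837), and it did not pass without KO3 (adjusted p = 0.0573). Med12l, whose span contains Gpr171, was dim on every array, as was Clrn1.

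Neither Ptger4 nor Ptger2, both receptors for prostaglandin E2, passed a threshold. Ptger4, the receptor EP4, stood at 6.92, 7.41 and 6.33 on the WT arrays and at 7.31, 6.71 and 6.45 on the KO-labelled arrays (log2). The groups lay across each other. The difference of -0.07 (SE 0.33, 95% interval -0.84 to 0.71, limma adjusted p = 0.946) had no settled sign, being 0.20 without WT2, 0.12 without KO3 and 0.25 without both WT2 and KO2. Its interval allowed changes beyond 1.5-fold in either direction, so these arrays do not show that Ptger4 stayed the same.

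Ptger2, the receptor EP2, was a little above the table median on every array and tightly measured. Its log2 values were 4.76, 4.91 and 4.83 on the WT arrays and 5.14, 5.13 and 5.05 on the KO-labelled arrays. Every KO-labelled array lay above every WT array, by a small step. The difference was 0.27 (SE 0.12, 95% interval -0.02 to 0.57, limma adjusted p = 0.383) and passed neither threshold. Log2 differences near the background level are compressed, so a change at this level could be understated, which was not tested. Of its neighbours on chromosome 14, Ptgdr, the prostaglandin D2 receptor, was dim on every array, and Txndc16, a thioredoxin-domain protein, stood at 0.74 (SE 0.30, adjusted p = 0.339), past the study's threshold only and at 0.37 without both WT2 and KO2. Beside Ptger4 on chromosome 15, Ttc33 and Prkaa1, the catalytic subunit of an energy-sensing kinase, were bright and overlapped between the groups.

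**Figure D3:**
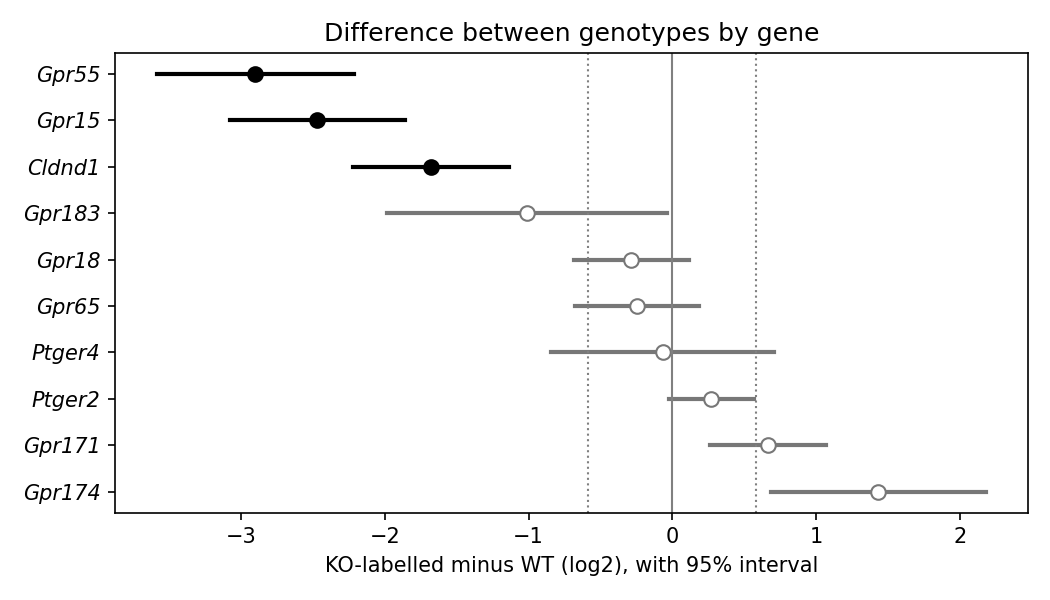
KO-labelled minus WT difference in log2 units (x axis, points) with its 95% interval (lines) for each gene; filled black points passed a limma adjusted p of 0.05, and dotted lines mark 1.5-fold. The points run from -2.90 for Gpr55 to 1.43 for Gpr174, and the intervals of Gpr18, Gpr65, Ptger4 and Ptger2 include 0.

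Other receptors, mostly lipid or orphan receptors, were described from 5 lists of 52 genes. Of these, 46 had a row of their own, 25 were dim on every array and 21 were tested. P2ry14 and Gpr160 fell past the adjusted threshold (0.629% of all tested genes passed it), and Ptgir, S1pr1 and Gpr146 were higher at the study's threshold only (3.97% of all tested genes). The median difference over the 21 genes was 0.07, beside -0.01 over all tested genes. Among the receptor genes tested here, differences below -1 were those of Gpr55, Gpr15 and P2ry14, which passed the adjusted threshold, and of Gpr183, which did not.

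Among the prostanoid receptors 4 of 7 were tested, with a median of 0.72. Ptgir, the prostacyclin receptor, stood at 3.64, 4.16 and 3.97 on the WT arrays, all below the table median. On the KO-labelled arrays it stood at 6.45, 4.81 and 5.64. The difference was 1.71 (SE 0.40, limma adjusted p = 0.139), or 2.59-fold with the table median in place of the WT values. It passed the study's threshold, with KO1 the highest array. Ptger1 (-0.02), Ptger3 (0.53) and Tbxa2r (0.91) passed neither threshold. Ptger3 was above the table median only in KO1 (5.33) and ran from 3.60 to 4.04 on the other arrays. The list's median of 0.72 therefore rests in part on that array.

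Of 15 lysophospholipid, sphingosine and cannabinoid receptors, 6 were tested, with a median of 0.09. S1pr1, the sphingosine phosphate receptor for exit from lymphoid organs, stood at 8.94, 9.23 and 9.77 on the WT arrays and 10.05, 11.00 and 10.86 on the KO-labelled arrays. Its groups did not overlap, and the difference of 1.32 (SE 0.31, limma adjusted p = 0.147) passed the study's threshold only. Cnr2, a cannabinoid receptor, was at 0.00 (SE 0.17), and Gpr34, another lysophosphatidylserine receptor, at -0.64 (SE 0.30), neither of them past a threshold.

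Of 14 receptors listed as other orphans, among them the UDP-sugar receptor P2ry14, 7 were tested, with a median of 0.00. Gpr160 stood at 4.98, 4.84 and 4.83 on the WT arrays and 4.09, 4.01 and 3.86 on the KO-labelled arrays, all 3 below the table median. It fell by 0.90 on the log2 scale (SE 0.13, limma adjusted p = 0.0478), or 1.54-fold with the table median in place of the dim values. However, it passed in no fit with 1 array left out (adjusted p = 0.0800 to 0.195). Gpr146 stood at 0.63 (SE 0.21, adjusted p = 0.269), and was under 1.5-fold without WT2 (0.46), KO2 (0.56) or both (0.38) and with median normalization (0.56). Of 13 leukotriene and fatty acid receptors 3 were tested, and none passed either threshold, Cysltr2 having the smallest p (log2 difference 0.35, SE 0.14, limma adjusted p = 0.345).

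Of 20 genes that make, break down or carry the ligands, 8 were tested, with a median of 0.01. None passed the adjusted threshold (limma), and Faah and Naaa passed the study's threshold (8.3% of all tested genes). Naaa, the acid amidase that degrades palmitoylethanolamide, stood at 7.26, 7.16 and 6.68 on the WT arrays and 6.02, 5.97 and 5.93 on the KO-labelled arrays, a difference of -1.06 (SE 0.18, limma adjusted p = 0.0677) past the study's threshold only. Faah, the hydrolase of anandamide, was at 0.72 (SE 0.29, adjusted p = 0.336), and under 1.5-fold without WT2 (0.40) or without both WT2 and KO2 (0.38). The enzymes of oxysterol ligand synthesis and breakdown, Ch25h, Cyp7b1 and Hsd3b7, were dim on every array, as was Ptgs2, the inducible cyclooxygenase.

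G proteins and the regulators of receptor signalling were measured next. Of 7 tested G protein alpha subunits, none passed the adjusted threshold (limma). Only Gna15 passed the study's threshold (8.3% of all tested genes did). Gna15 stood at -0.88 (SE 0.36, limma adjusted p = 0.339), with overlapping groups. It was under 1.5-fold without KO2 (-0.50) or without both WT2 and KO2 (-0.38). Of 11 tested regulators, Rgs1, a GTPase activator that shortens G protein signals, rose past the adjusted threshold (0.629% of all tested genes passed it). Rgs1 stood at 5.78, 5.90 and 5.70 on the WT arrays and 7.08, 6.75 and 7.13 on the KO-labelled arrays, a difference of 1.19 (SE 0.15, adjusted p = 0.0328). The groups were well apart, but the call was lost without WT1 (adjusted p = 0.108), WT2 (0.0647), WT3 (0.150), KO1 (0.0724) or KO3 (0.132), and with median normalization (0.0650).

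At the study's threshold Rgs1, Rgs14 (0.69), the receptor kinase gene Grk5 (0.74) and the arrestin gene Arrb1 (1.23) were higher and Rgs16 (-0.69) lower, where 3.97% and 4.33% of all tested genes were higher and lower. The median over the list was 0.28. Arrb1 spread widely over the KO-labelled arrays (6.06, 7.34 and 7.01), and without KO1 it passed the adjusted threshold (1.60, limma adjusted p = 0.0481). Rgs16 was below the table median on every KO-labelled array, but so it was in WT1 (4.09), and the groups overlapped. With the table median in place of the dim KO-labelled values, Rgs16 was 1.35-fold lower. Without WT2 its difference was -0.45 and without both WT2 and KO2 -0.57, both under 1.5-fold.

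Genes that respond to cyclic AMP, the messenger raised by Ptger2, Ptger4 and Gpr65, did not move one way. Of 10 tested, none passed the adjusted threshold (limma). At the study's threshold Pde4b, a phosphodiesterase that breaks down cyclic AMP, was higher (0.75, SE 0.29, limma adjusted p = 0.313). The AP-1 factor Fosl2 was lower (-0.98, SE 0.32, limma adjusted p = 0.257). Over all tested genes 3.97% were higher and 4.33% lower at this threshold. The median over the 10 listed genes was 0.11. The groups overlapped for Pde4b, which was under 1.5-fold without WT2 (0.53), KO3 (0.56) or both WT2 and KO2 (0.50). Fosl2 was highest in WT3 (6.06) and close to 4.3 on all 3 KO-labelled arrays.

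**Figure D4:**
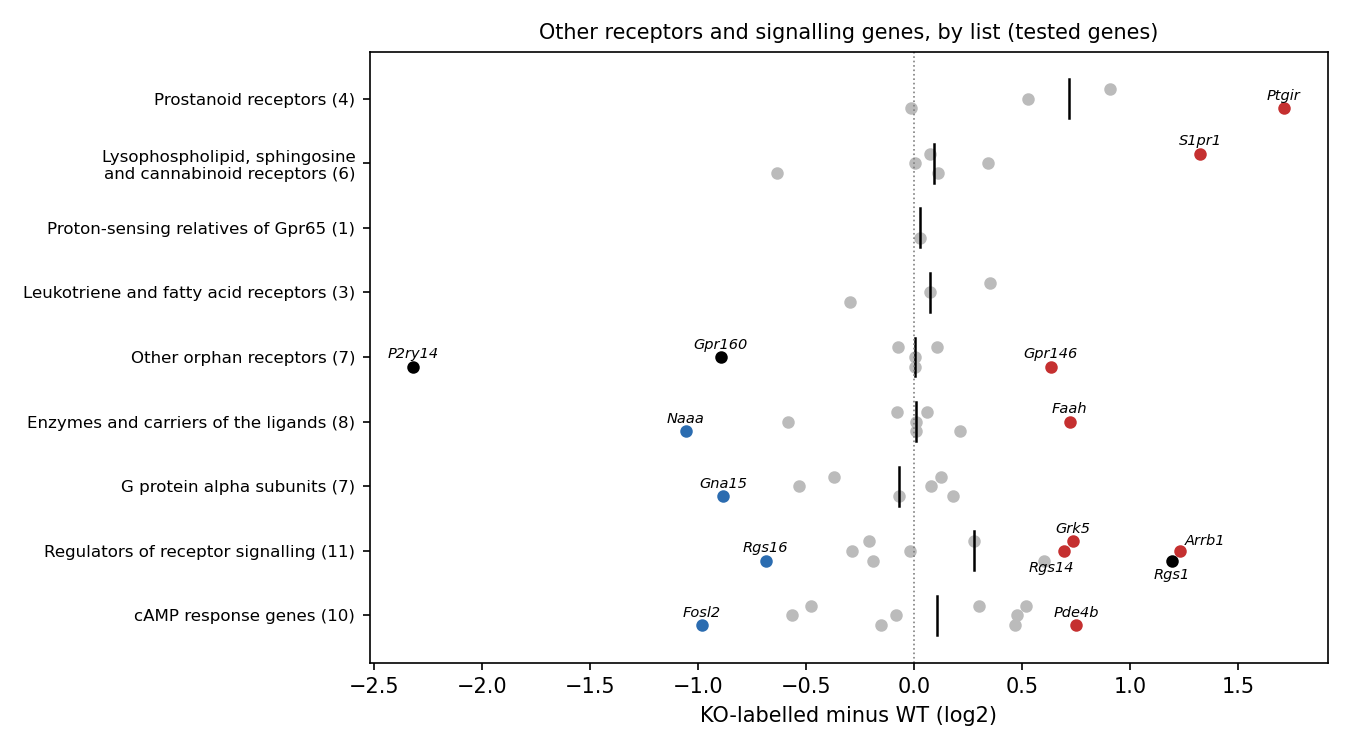
KO-labelled minus WT difference in log2 units (x axis) for each tested gene of the receptor and signalling lists, with the number tested in parentheses and a bar at each list's median. Black points passed a limma adjusted p of 0.05, red and blue points were higher and lower at the study's threshold only, and P2ry14 at -2.32 and Ptgir at 1.71 mark the ends.

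The genes whose pattern over the 6 arrays was most like that of Gpr55 were Fgd2 (Pearson r = 0.995), Kir3dl1 (r = 0.995) and Suox (r = 0.991), out of 10020 genes compared. The points are the same 6 libraries in 2 groups, so any gene that falls and is highest in WT2 gives a high r, and it is a description. Kir3dl1, an inhibitory receptor of NK cells and some T cells, stood at 6.38, 7.71 and 6.45 on the WT arrays and at 4.11, 3.84 and 3.74 on the KO-labelled arrays. Fgd2 was likewise highest in WT2, over a range of only 4.13 to 4.41.

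For Gpr15 the most similar genes were Sec24d, a coat protein of secretory vesicles (r = 0.996), Ifitm1, an interferon-induced membrane protein (r = 0.994), and Rdh13 (r = 0.989), over the same 6 arrays. Ifitm1 stood at 11.8 in WT2 and 11.4 in WT3, was lower in WT1, as Gpr15 was, and lay between 5.30 and 5.42 on the KO-labelled arrays. Sec24d ran from 5.30 to 5.63 on the WT arrays and from 4.65 to 4.73 on the KO-labelled arrays.

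Markers of other cells moved with genotype in part. The mean of 6 NK cell markers was 3.82 to 4.19 on the WT arrays and 3.56 to 3.72 on the KO-labelled arrays (log2). These means all lay below the table median, and 4 of the 6 markers were dim on every array. Klrb1c, 1 of 2 tested, stood at 4.34, 5.66 and 5.94 on the WT arrays and at 3.74 to 3.77 on the KO-labelled arrays (difference -1.56, limma adjusted p = 0.169). With the table median in place of the dim KO-labelled values, it was 2.08-fold lower. Klrb1c passed the study's threshold, at which 4.33% of all tested genes were lower. Without WT1 it passed the adjusted one too (-2.05, limma adjusted p = 0.0267). Klre1, the other one tested, had overlapping groups and passed neither threshold (-0.23, SE 0.17, limma adjusted p = 0.558). The defining NK marker Ncr1 was dim on every array, with a highest value of 3.51. The share of NK-type transcripts in the falls of Gpr55 and Gpr15 was not tested.

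The mean of 4 CD4 T cell markers was 5.14 to 5.43 on the WT arrays and 5.35 to 5.89 on the KO-labelled arrays. Cd4 (0.95) and Zbtb7b (0.64) were higher at the study's threshold (3.97% of all tested genes were). Foxp3 (-0.32, from 5.33 to 6.70) passed neither threshold and Cd40lg was dim on every array. CD4+CD8- cells were removed from the KO-labelled cultures alone. The groups overlapped for Zbtb7b, which was under 1.5-fold without WT1 (0.48) or KO3 (0.45) and with quantile (0.52) or median (0.57) normalization. The paper names Cd4 and Zbtb7b among Runx3 targets earlier reported to be affected by Runx3 loss as CD8+ T cells develop. The paper reports that nearly all cells were CD3+ CD8+ T cells when culture ended, with no value per genotype. From these arrays alone, CD4 T cells and expression of these genes in CD8+ cells cannot be told apart. The part of these markers in the higher values of Gpr171, Gpr174 and Itm2a was not tested. Of 7 CD8 T cell markers, only Cd5 (1.12) passed the study's threshold, as did 8.3% of all tested genes. The mean of 9 dendritic cell markers ran from 3.57 to 3.76 on the WT arrays and from 3.58 to 3.96 on the KO-labelled arrays, with H2-Eb1 at 0.39 (SE 0.19, limma adjusted p = 0.405), with Cd74 at 5.74 in KO1 and at most 4.24 on the others, and with Itgax dim throughout. Of 5 measured B cell markers only Cd79b was tested (-0.93, limma adjusted p = 0.148). It was lower at the study's threshold only (4.33% of all tested genes were lower), and its groups did not overlap. Cd79a, Ms4a1 and Pax5 were dim on every array. All 5 measured macrophage markers were dim on every array.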

How the data were processed

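RNA of 6 splenic CD8+ T cell cultures, 3 WT and 3 Runx3-/-, was hybridised to 1 array each. The authors deposited 1 column of log2 values per array, made in Partek with the GC-corrected robust multichip average (RMA). Versions of the software and annotation were not given in the sources used here. This method carries no detection call, it quantile-normalises arrays, and it compresses differences of dim genes.

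Of 35399 rows, 21789 had exactly 1 gene symbol, 1621 had several and 11989 were not named. Per gene, the brightest row on average was used, leaving 19938 genes. A gene was tested if its highest value reached the table median of 4.26 (log2), which stands in for background, and 9917 genes were dim on every array. Folds given against the table median put it in place of the dim group's values, and are point values without an interval. Array medians ran from 4.15 to 4.35, and the number of arrays limits precision.

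KO-labelled and WT arrays were compared with limma 3.58.1 in R 4.3.3 (lmFit and eBayes, two-sided, no covariate), with Benjamini-Hochberg adjustment over the 10021 tested genes. The second threshold, an unadjusted p of 0.05 and 1.5-fold, is that of the study. SE are moderated. Replicates are the study's biological repeats, so p-values measure the spread between repeats and their cultures. Whether each repeat was 1 mouse was not checked. The fit was also run on simulated data with independent noise. That setting lacks the array differences seen here, so it does not test these calls. Alternatives were the filter, quantile or median normalization, the mean of a gene's rows, a replicate block, an unmoderated linear model, robust priors with a trend, each array left out, and, added after the data were seen, both WT2 and KO2 left out.

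The receptor genes and lists were chosen with earlier results of these data known. Named genes are these 10, Runx3, Xist and 2 Y-linked genes, list members past the study's threshold (or with the smallest p where none passed), the nearest 2 named protein-coding genes on each side, leaving out predicted genes and clone names, and for Gpr55 and Gpr15 the 3 most correlated tested genes. Other list members were named after their values were seen. Promoter windows came from RefSeq (GRCm38.p6), and figures were drawn with matplotlib 3.10.9.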

Additional observations from a re-analysis of the deposited data

How the results depend on the processing

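All 10 genes except Ptger4 kept their direction in every alternative run. The number of the 10 past an adjusted p of 0.05 was 3, and 0 to 3 with 1 array left out (1 without WT3 and 0 without KO3), while 5 or 6 passed the study's threshold throughout. Over all tested genes 63 passed the adjusted threshold, 9 to 67 with 1 array left out, and 36 with no filter, where 19938 genes were tested. The 832 genes at the study's threshold became 652 to 1257 with 1 array left out. The unmoderated linear model called 0 genes after adjustment, 0 of the 10 among them, and 508 at the study's threshold. Same-numbered arrays are not known to be pairs. Their deviations from the group means had correlations of -0.131, -0.369 and -0.133 over the tested genes. Arrays of unlike number gave -0.452 to 0.441. Deviations from a mean of 3 arrays are tied to one another, so these values cannot settle whether the arrays were paired. With the replicate block 1 gene and 0 of the 10 passed in limma (Gpr55 and Gpr15 adjusted p = 0.0964 and Cldnd1 0.159), with 711 genes at the study's threshold. Ptger4 (-0.07) ranged from -0.34 to 0.20 with 1 array left out and was 0.25 without both WT2 and KO2. Gpr132 (0.03) was -0.0401 with median normalization, -0.37 to 0.27 with 1 array left out and -0.49 without both WT2 and KO2. For 27 of the other named genes, 366 of 401 alternatives kept direction and side of the adjusted threshold, 28 lost the call, 2 gained it and 5 changed sign. The causes were not tested. Gpr55 and Gpr15 on the KO-labelled arrays and Ptger2 on all arrays were near the stand-in background level, which limits their measured differences.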
